A study of Mus musculus with 13 samples.

Results

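Nuclear pore and nuclear transport genes code for the gate between nucleus and cytoplasm and for the carriers that pass it. They were measured in Sertoli cells enriched from the testis of adult mice. The genes were chosen by symbol alone, as the rows whose names start with *Nup*, *Kpna*, *Kpnb*, *Ipo* or *Tnpo* followed by a digit, which gave 38 rows, together with 12 named genes (*Xpo1*, *Xpo4*, *Xpo6*, *Xpo7*, *Xpot*, *Ndc1*, *Tpr*, *Pom121*, *Seh1l*, *Sec13*, *Rae1* and *Ran*). This gave 50 genes of the 27111 named features in the count table, and 49 of them were abundant enough to be tested. *Nup210* was set against the rest, and it was already known from earlier results of these data to be among the genes with the smallest p-values, so its own values below are a description of that gene and not an independent finding.

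Nuclear pores are built from rings of nucleoporins stacked in the nuclear envelope. An outer ring and an inner ring form the scaffold, a membrane ring anchors it in the envelope, unstructured proteins with phenylalanine-glycine repeats fill the channel, and filaments and a basket extend from its ends. Importins carry cargo inward and exportins carry it outward, and the GTPase Ran, bound to GTP in the nucleus and to GDP outside, tells each carrier where to release its load.

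The study compared 6 Control males with 7 males exposed to MSUS, unpredictable separation from the mother together with unpredictable stress of the mother, to ask which changes in Sertoli cells outlast stress in early life. The MSUS treatment ran over postnatal days 1 to 14 and joined 2 stressors. Litters were without their dam daily, on no fixed schedule and for 3 h, and the dam was meanwhile restrained (20 min) or put to a cold swim (5 min at 18°C). Control litters were left alone. All mice were wild-type (Bl6 wt in the labels, C57Bl/6J in the study's methods), and each library came from 5 ng of total RNA of one sorted preparation. The sort took diploid cells by Hoechst staining, then large cells, then cells with a high MitoTracker signal, so the preparations were enriched for Sertoli cells without a cell-specific marker and could still hold other cells. Samples are named by group and by the number in the sample title.

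Total counts were 13087108 to 18649819 in Control and 12701664 to 15693836 in MSUS samples. CPM are counts scaled to the sum of the tested genes in each library, adjusted by TMM normalization, and not to these totals. The 5 Sertoli markers (*Clu*, *Ctsl*, *Amhr2*, *Rhox5* and *Sox9*) were all detected. They summed to 11903 to 14793 CPM in Control and 12118 to 14435 CPM in MSUS samples. The 4 markers of elongated spermatids summed to 847 to 1378 CPM and 730 to 1775 CPM, so the preparations also carried germ cell RNA. The 4 macrophage markers reached at most 1.27 CPM. No library stood apart by its total or by the sum of its Sertoli markers. In bulk RNA, fewer cells of a type and less RNA per cell cannot be told apart.

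Promoters were read from RefSeq for 40 of the 50 genes, 47 promoters in all, each from 250 bases before to 50 after a transcription start (GRCm38.p6). 4 short motifs were searched on both strands. The GC box GGGCGG was present in 66.0% of the promoters of these genes and in 35.7% of all 32851 promoters, the ETS core CCGGAA in 29.8% and 14.9%, the CCAAT box CCAAT in 51.1% and 37.4%, and the TATA box TATAAA in 8.5% and 13.6%. The median GC content was 64.0% for these genes and 52.7% for all promoters. The 3 promoters shown belong to the gene with the largest difference between the groups (*Nup210*), the gene with the smallest p among those lower in MSUS samples (*Ipo11*) and the most abundant gene per length (*Ran*), each 5′ to 3′ on the strand of the gene with matches to the searched motifs in capitals. The *Nup210* promoter, chr6:91116777-91117076 on the minus strand, was 73.7% GC and held 2 GC boxes, both read on the opposite strand, and none of the other motifs.
Nup210: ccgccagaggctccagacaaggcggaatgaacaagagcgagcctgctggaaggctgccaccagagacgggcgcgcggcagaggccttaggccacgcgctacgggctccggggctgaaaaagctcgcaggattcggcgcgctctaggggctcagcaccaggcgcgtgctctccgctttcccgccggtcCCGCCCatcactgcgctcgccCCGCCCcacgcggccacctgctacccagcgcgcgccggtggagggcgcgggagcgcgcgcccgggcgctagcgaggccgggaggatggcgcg
The *Ipo11* promoter, chr13:106936909-106937208 on the minus strand, was 59.0% GC and held 1 CCAAT box, also on the opposite strand.
Ipo11: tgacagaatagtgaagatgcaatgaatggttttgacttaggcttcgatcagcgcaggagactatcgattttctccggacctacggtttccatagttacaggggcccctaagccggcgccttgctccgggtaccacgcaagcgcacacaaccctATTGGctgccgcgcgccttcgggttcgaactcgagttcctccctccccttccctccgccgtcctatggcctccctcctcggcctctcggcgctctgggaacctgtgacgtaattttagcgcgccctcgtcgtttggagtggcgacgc
The *Ran* promoter, chr5:129019906-129020205 on the plus strand, was 82.0% GC and held 4 GC boxes.
Ran: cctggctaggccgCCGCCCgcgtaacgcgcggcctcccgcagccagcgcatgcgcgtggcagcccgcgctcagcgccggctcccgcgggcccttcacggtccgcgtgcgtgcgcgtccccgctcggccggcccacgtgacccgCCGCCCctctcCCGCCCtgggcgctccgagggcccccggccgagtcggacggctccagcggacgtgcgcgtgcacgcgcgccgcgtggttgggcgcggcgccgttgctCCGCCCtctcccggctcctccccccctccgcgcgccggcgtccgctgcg

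In Control samples the genes spanned a wide range of abundance. Levels between genes were compared as log2 CPM per kilobase of exon, since long transcripts collect more reads. *Ran* was the most abundant at 6.02 ± 0.06 (SD, n = 6), followed by *Nup62cl*, an X-linked relative of the channel protein Nup62, at 5.65 ± 0.16 and *Pom121*, a membrane protein of the pore that acts early in pore assembly, at 5.37 ± 0.10. *Kpnb1*, the importin beta that carries most classical cargo, stood at 5.10 ± 0.07 and *Tpr*, the filament of the nuclear basket, at 4.88 ± 0.14. The median over the 50 genes was 3.38. Of the 49 pairs of neighbours in this order, 10 kept their order in all 6 Control samples, so most neighbours did not differ beyond their spread.

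The low end of the order was set apart. *Nup43*, a small outer ring protein, stood at 0.52 ± 0.34 on this per-length scale, and *Nup210* followed 3.28 lower at -2.76 ± 0.43, in all 6 Control samples below *Nup43*. *Nup210* thus had 441-fold fewer counts per length than *Ran*. Only *Kpna7*, an importin alpha best known from oocytes and early embryos, lay lower, with 37 counts in all 13 samples together and 0 to 9 per sample, too few to test. The genes of the outer ring, whose proteins form a single complex, differed in transcript level per length from 4.23 ± 0.18 for *Sec13*, which also serves in the coat of secretory vesicles, to the 0.52 of *Nup43*.

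**Figure D1:**
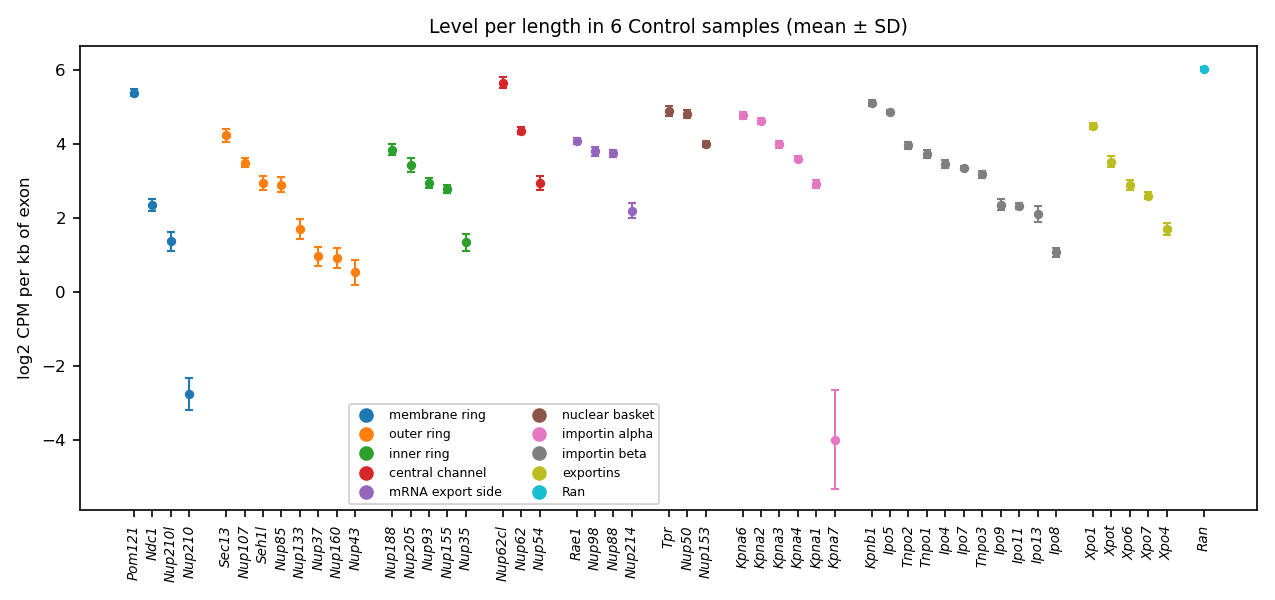
Level per length of the 50 genes in the 6 Control samples, as mean ± SD in log2 CPM per kilobase of exon (vertical axis), grouped by role and ordered by level within each role. *Ran* is highest at 6.02, and *Nup210* at -2.76 and *Kpna7* lie far below all other genes.

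Between MSUS and Control samples, these genes as a group differed little. The median log2 fold change (MSUS against Control) of the 49 tested genes was -0.01, and that of all 14421 genes tested was 0.00. The size of the difference was smaller than in other genes, with a median absolute log2 fold change of 0.049 against 0.096 over all genes, which also include many of lower abundance. In 34 of the 49 genes it was under 0.1 and in 4 it was above 0.2 (*Nup210*, *Nup37*, *Nup43* and *Nup214*). The fold change was positive in 22 genes and negative in 27.

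None of the 49 genes passed limma's test after Benjamini-Hochberg adjustment over all genes, and neither did any other gene (0% of 14421), nor did any with edgeR or DESeq2. At an unadjusted p under 0.05, the threshold the study itself used, limma called 4 of the 49 genes, which is 8.16%, against 781 genes or 5.42% over all genes. Of the 4, *Nup210* and *Ipo9* were higher in MSUS samples, where the share over all genes was 3.02%, and *Ipo11* and *Ipo7* were lower, where it was 2.4%. edgeR and DESeq2 each called 5, the fifth being *Nup214*. Leaving out *Nup210*, whose small p-value was known beforehand, limma called 3 of 48 genes, or 6.25%. In no gene of the 49 were the groups without overlap, which 19 genes or 0.132% of all genes were. The count of 4 is therefore near the share found over all genes, and the adjusted p-values of the 49 genes lay between 0.878 and 1.000.

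**Figure D2:**
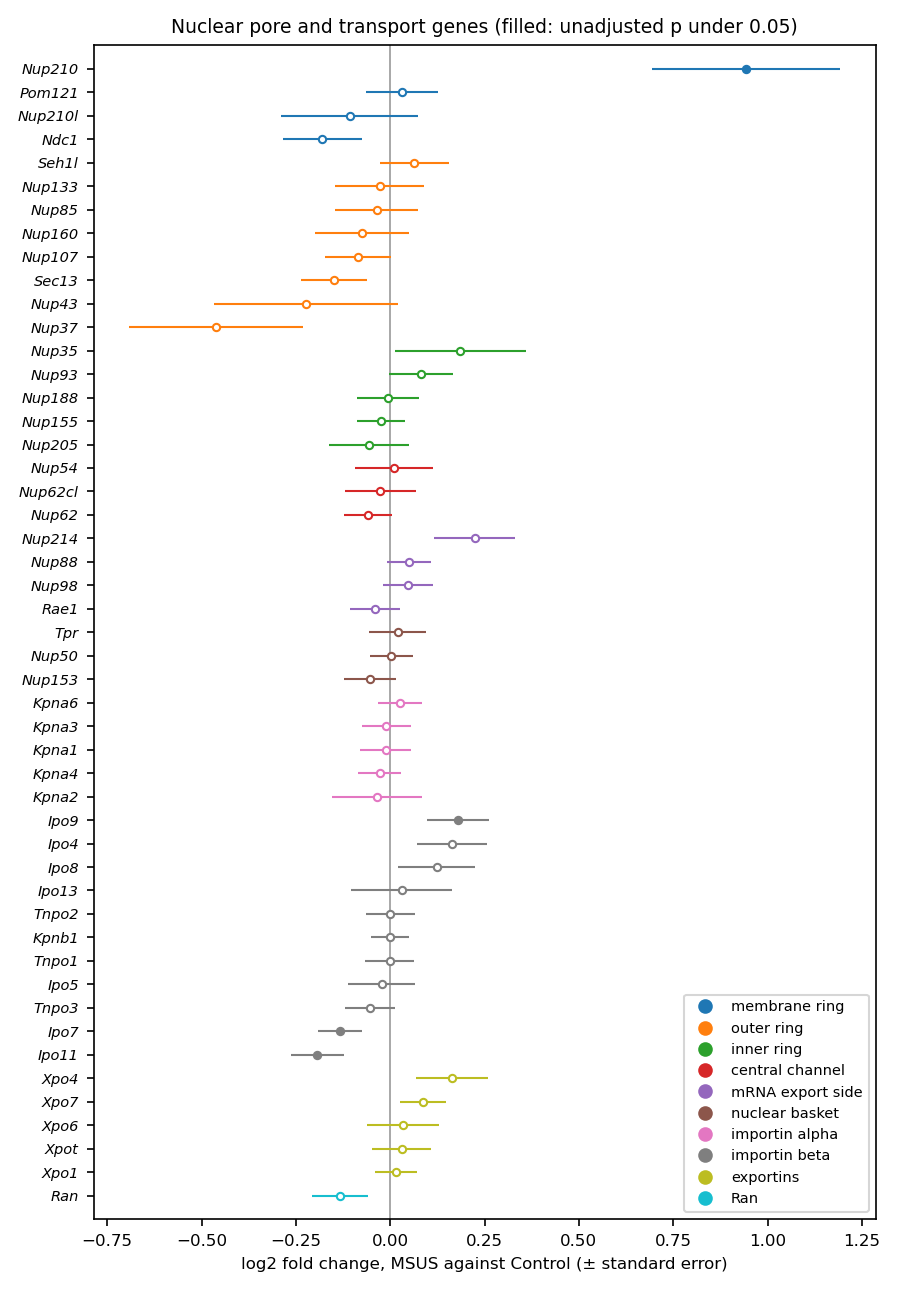
Log2 fold change of MSUS against Control for the 49 tested genes with its standard error (horizontal axis), grouped by role. Filled points have an unadjusted p under 0.05, and *Nup210* at 0.94 is the only point beyond 0.5 in either direction.

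*Nup210* codes for a large transmembrane nucleoporin of the membrane ring. The gene lies on the minus strand of chromosome 6 (chr6:91013068-91116829, GRCm38, ENSMUSG00000030091.17). Its counts were low in every sample. Control 9, 10, 12, 14, 22 and 24 had 15, 26, 14, 23, 15 and 18 reads, and MSUS 1, 5, 6, 11, 13, 23 and 26 had 30, 40, 40, 37, 27, 20 and 31 reads. All but 1 of the MSUS samples had more reads than any Control sample, MSUS 23 being the exception.

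As levels in log2 CPM, which take the size of each library into account, Control 9, 10, 12, 14, 22 and 24 stood at 0.56, 0.96, 0.34, 1.33, 0.36 and 0.94. MSUS 1, 5, 6, 11, 13, 23 and 26 stood at 1.47, 1.93, 1.91, 1.85, 1.39, 1.22 and 1.48. Of the MSUS samples, 6 of 7 were above every Control sample, and the groups overlapped because MSUS 23 lay below Control 14. The means were 0.75 ± 0.39 (SD, n = 6) and 1.61 ± 0.28 (SD, n = 7).

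The log2 fold change of *Nup210* was 0.94 with a standard error of 0.25 and a 95% interval of 0.42 to 1.47, a 1.92-fold higher level in MSUS samples (limma, adjusted p = 0.878). By p-value it was in place 9 of the 14421 genes and in place 6 of those higher in MSUS samples. The SD within groups was 0.34, and counting error alone at these read numbers gives 0.30. Its level stood at percentile 9.16 of the genes tested. Genes within 0.5 log2 CPM of it, 1347 in number, had a median absolute log2 fold change of 0.257, well above the 0.096 of all genes.

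The other 48 genes, pore proteins and carriers alike, had log2 fold changes from -0.46 to 0.22. Their mean level differed by -0.01 between the groups, and relative to this mean *Nup210* stood at -5.16 ± 0.42 log2 units in Control and at -4.29 ± 0.27 in MSUS samples. Within the membrane ring, its share of the transcripts per length was 0.31% ± 0.10 in Control and 0.57% ± 0.11 in MSUS samples, so it remained a minor transcript of this ring in both groups.

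Of the 3 other membrane ring genes, none passed even the unadjusted threshold. *Pom121* made up most of the ring with 84.0% ± 1.5 of the transcripts per length in Control and 85.2% ± 2.5 in MSUS samples, and its log2 fold change was 0.03 (SE 0.10). *Pom121* levels were 7.70 to 7.98 in Control and 7.62 to 8.36 log2 CPM in MSUS samples, with MSUS 26 the highest. *Ndc1*, which anchors the inner ring to the membrane, had a log2 fold change of -0.18 (SE 0.10), with Control samples at 4.40 to 4.87 and MSUS samples at 4.12 to 4.79 log2 CPM. *Nup210l*, a paralogue of *Nup210*, had a log2 fold change of -0.11 (SE 0.18), with Control samples at 3.53 to 4.20 and MSUS samples at 3.10 to 4.46 log2 CPM. It was lowest in MSUS 1 and highest in MSUS 11, which also had the lowest and highest sums of spermatocyte markers (127 and 311 CPM). The part of germ cell RNA in its level and in its share of the ring was not tested. The 2 paralogues can be told apart by their reads, since 0.06% of the 31-base words of *Nup210* transcripts and 0% of those of *Nup210l* occurred in any other annotated gene.

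**Figure D3:**
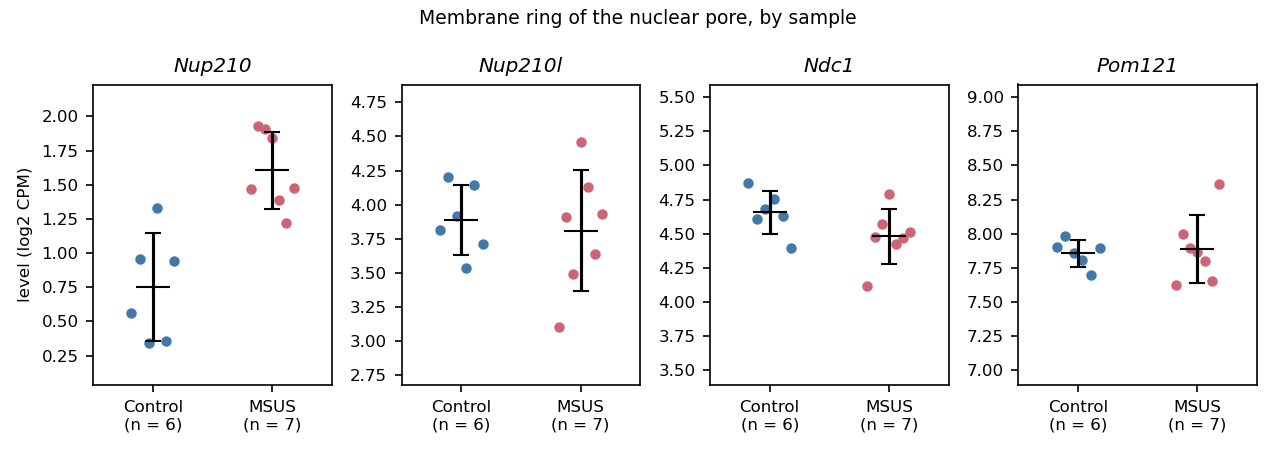
Level in log2 CPM (vertical axis) of the 4 membrane ring genes in each of 6 Control (blue) and 7 MSUS (red) samples, with mean and SD in black. The panels span the same number of log2 units, and only for *Nup210* do most MSUS samples, 6 of 7, lie above every Control sample.

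Other measures of the same samples are given beside *Nup210*, whether or not they moved with the grouping. The level of *Malat1*, an abundant nuclear long noncoding RNA, was 9.16 to 10.7 log2 CPM in Control and 10.2 to 11.3 in MSUS samples, and with it as a covariate the log2 fold change of *Nup210* was 0.81 (limma, adjusted p = 0.999). *Nup210* is also expressed in T cells. The 5 T cell markers (*Cd3e*, *Cd3g*, *Cd4*, *Cd8a* and *Lck*), of which 1 was abundant enough to test, summed to 1.55 to 3.82 CPM in Control and to 1.01 to 2.81 CPM in MSUS samples, with means of 2.14 and 1.82 CPM. The 4 peritubular myoid markers summed to 7.56 to 58.9 CPM in Control and 10.8 to 87.0 CPM in MSUS samples, with means of 22.9 and 39.1 CPM. The part of either cell type in the result was not tested.

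The outer ring, also called the Y complex, had 8 tested genes, of which 7 had a negative fold change (5 with *Malat1* as covariate or without Control 22) and none passed the unadjusted threshold. Their median log2 fold change was -0.08. *Nup37*, a small peripheral subunit, had the most negative value of all 49 genes at -0.46 (SE 0.23, limma, adjusted p = 0.878). In Control samples its level was 2.45 to 3.00 log2 CPM with a median of 2.67, and MSUS samples stood at 1.23, 2.69, 2.10, 2.67, 2.58, 2.88 and 2.05 for MSUS 1, 5, 6, 11, 13, 23 and 26. MSUS 1, with 25 reads, was far below the rest, and the groups overlapped. Without MSUS 1 the log2 fold change was -0.27, and *Nup43* at -0.29 was then the most negative. *Nup43* had a log2 fold change of -0.22 (SE 0.24) on 15 to 63 reads per sample, and it was -0.09 without MSUS 23, -0.14 without MSUS 26 and -0.15 without Control 22. *Sec13*, the most abundant gene of this ring per length, was at 5.64 to 6.13 log2 CPM in Control and 5.58 to 5.96 in MSUS samples, a log2 fold change of -0.15 (SE 0.09), which turned to 0.04 with *Malat1* as covariate. The scaffold proteins at the core of the Y, *Nup107*, *Nup133*, *Nup160* and *Nup85*, lay between -0.09 and -0.03, and *Seh1l*, which is shared with a regulator of the mTORC1 pathway, was the 1 gene with a positive value, 0.06.

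The inner ring, which lines the membrane between the outer rings, had 5 tested genes with a median log2 fold change of -0.01. *Nup188*, its most abundant gene per length, was at 6.33 to 6.67 log2 CPM in Control and 6.23 to 6.66 in MSUS samples. *Nup205*, *Nup155* and *Nup93* had log2 fold changes of -0.06, -0.02 and 0.08. *Nup35*, a membrane-binding subunit, had the largest value of this ring at 0.19 (SE 0.17), and 43.0% of the 31-base words of its transcripts occurred in another annotated gene, so that its counts are uncertain.

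The channel, the cytoplasmic and mRNA export side and the nuclear basket differed little between the groups. In the channel, which forms the barrier to free diffusion, *Nup62cl* was at 6.81 ± 0.16 log2 CPM (SD, n = 6) in Control and 6.78 ± 0.21 (SD, n = 7) in MSUS samples, and *Nup62* and *Nup54* had log2 fold changes of -0.06 and 0.01. On the mRNA export side, *Nup214*, which docks export complexes at the cytoplasmic face, had a log2 fold change of 0.22 (SE 0.11, limma, adjusted p = 0.878). Its Control samples stood at 5.34, 5.83, 5.26, 5.40, 5.46 and 5.50 for Control 9, 10, 12, 14, 22 and 24, and its MSUS samples at 5.78, 5.79, 5.72, 5.62, 5.42, 5.46 and 6.04 log2 CPM for MSUS 1, 5, 6, 11, 13, 23 and 26. Control 10 was above all but 1 of the MSUS samples, so the groups overlapped. Its partner *Nup88* and the mRNA export factors *Nup98* and *Rae1* had log2 fold changes of 0.05, 0.05 and -0.04, and *Rae1*, the most abundant of the 4 per kilobase of exon (by longest transcript *Nup88* was, at 5.18 against 4.63 log2 CPM per kilobase), was at 5.27 to 5.50 log2 CPM in Control and 5.32 to 5.55 in MSUS samples. In the basket, *Tpr* was at 8.12 to 8.47 log2 CPM in Control and 8.11 to 8.57 in MSUS samples, and *Nup50* and *Nup153* had log2 fold changes of 0.00 and -0.05.

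The importin alphas are the adaptors that bind a classical nuclear localisation signal and hand the cargo to importin beta. Their 5 tested genes had log2 fold changes between -0.04 and 0.03, the narrowest range of any role with more than 3 genes. *Kpna6*, the most abundant per kilobase of exon, was at 7.38 to 7.66 log2 CPM in Control and 7.43 to 7.66 in MSUS samples. By longest transcript *Kpna2* was above it, at 5.09 against 5.00 log2 CPM per kilobase, and 66.0% of the 31-base words of *Kpna2* transcripts occurred in another annotated gene, so that its counts are uncertain. Of the importin alpha transcripts per kilobase of exon in Control samples, *Kpna6* made up 31.2% ± 1.7, *Kpna2* 28.1% ± 1.5, *Kpna3* 18.1% ± 0.8, *Kpna4* 13.8% ± 0.8 and *Kpna1* 8.65% ± 0.63. In MSUS samples the same shares were 31.8% ± 2.2, 27.8% ± 4.8, 18.0% ± 2.0, 13.6% ± 0.8 and 8.64% ± 1.02. The shares thus differed between the groups by less than their spread between samples, with *Kpna2*, the adaptor best known from dividing cells, the most variable among MSUS samples.

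The importin beta family, whose members bind cargo directly or through an importin alpha, held 3 of the 4 genes with an unadjusted p under 0.05 among its 11 tested genes, or 27.3% where the share over all genes was 5.42%, and whether they gather in this family was not tested. Its median log2 fold change was 0.00. *Ipo11* carries a group of ubiquitin-conjugating enzymes into the nucleus. Control 9, 10, 12, 14, 22 and 24 stood at 5.25, 5.39, 5.37, 5.29, 5.36 and 5.15 log2 CPM, and MSUS 1, 5, 6, 11, 13, 23 and 26 at 5.21, 5.08, 5.05, 5.12, 5.17, 4.98 and 5.19. All 7 MSUS samples were below the Control mean and 4 were below every Control sample, and the groups overlapped because Control 24 was low. The log2 fold change was -0.19 (SE 0.07, 95% interval -0.34 to -0.05, limma, adjusted p = 0.878).

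*Ipo7* imports ribosomal proteins and other cargo, in part together with *Kpnb1*. Control samples stood at 6.86, 6.85, 6.87, 6.73, 6.78 and 6.82 log2 CPM for Control 9, 10, 12, 14, 22 and 24, and MSUS samples at 6.74, 6.60, 6.60, 6.56, 6.78, 6.74 and 6.80 for MSUS 1, 5, 6, 11, 13, 23 and 26. All 7 MSUS samples were below the Control mean, with MSUS 5, 6 and 11 below every Control sample. The log2 fold change was -0.13 (SE 0.06, 95% interval -0.25 to -0.01, limma, adjusted p = 0.878), and without any 1 of Control 9, 10 or 12 or MSUS 5, 6 or 11 its p was above 0.05.

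*Ipo9*, an importer of core histones, went the other way. Control samples stood at 5.20, 5.58, 5.41, 5.23, 5.46 and 5.49 log2 CPM for Control 9, 10, 12, 14, 22 and 24, and MSUS samples at 5.64, 5.65, 5.37, 5.56, 5.53, 5.54 and 5.77 for MSUS 1, 5, 6, 11, 13, 23 and 26. The 3 samples MSUS 1, 5 and 26 were above every Control sample, while MSUS 6 was below the Control mean. The log2 fold change was 0.18 (SE 0.08, 95% interval 0.01 to 0.35, limma, adjusted p = 0.878), and without any 1 of Control 9, 12 or 14 or MSUS 1, 5 or 26 its p was above 0.05.

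**Figure D4:**
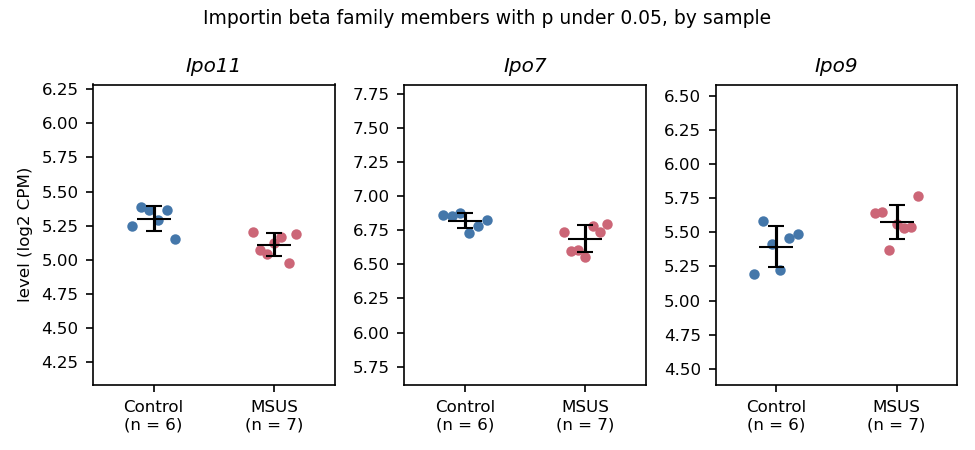
Level in log2 CPM (vertical axis) of *Ipo11*, *Ipo7* and *Ipo9* in each of 6 Control (blue) and 7 MSUS (red) samples, with mean and SD in black, on axes of the same length in log2 units. In all 3 genes the groups overlap and the means differ by less than 0.2.

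The remaining importin betas included the most abundant carriers. *Kpnb1* was at 7.77 to 7.96 log2 CPM in Control and 7.71 to 7.90 in MSUS samples, a log2 fold change of 0.00 with a 95% interval of -0.11 to 0.11, the narrowest interval of the 49 genes. *Tnpo1* and *Tnpo2*, which import RNA-binding proteins, also had log2 fold changes of 0.00, and *Tnpo3*, which imports splicing factors, one of -0.05. *Ipo5*, an importer of ribosomal proteins, had -0.02, *Ipo13* 0.03, *Ipo8* 0.12 and *Ipo4* 0.16. More than 50% of the 31-base words of *Ipo4* transcripts, 53.1%, occurred in another annotated gene, so that its counts are uncertain.

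The 5 exportins all had positive fold changes, though 1 of 5 did with *Malat1* as covariate and 3 of 5 without MSUS 26, and none passed the unadjusted threshold, with a median log2 fold change of 0.03. *Xpo1*, the exporter of proteins with a leucine-rich signal, was at 7.21 to 7.45 log2 CPM in Control and 7.23 to 7.45 in MSUS samples. *Xpo4* had the largest value at 0.16 (SE 0.09), with *Xpo7* at 0.09, *Xpo6*, the exporter of actin, at 0.03 and *Xpot*, the exporter of transfer RNA, at 0.03. *Ran* was at 7.36, 7.36, 7.41, 7.45, 7.47 and 7.51 log2 CPM in Control 9, 10, 12, 14, 22 and 24, and at 7.08, 7.17, 7.32, 7.47, 7.45, 7.48 and 7.09 in MSUS 1, 5, 6, 11, 13, 23 and 26. MSUS 1, 5, 6 and 26 were below every Control sample and the other MSUS samples were within the Control range. The log2 fold change was -0.13 (SE 0.07, limma, adjusted p = 0.878). It was -0.04 with *Malat1* as covariate and lay between -0.16 and -0.04 over the 23 alternatives. Its unadjusted p was under 0.05 in 3 of these (limma), with the elongated spermatid markers as covariate and without MSUS 11 or MSUS 23. Other annotated genes held 18.8% of the 31-base words of *Ran* transcripts.

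The deviations of each gene from its Control mean show how the samples varied around this. Control 10 had the highest Control level in 22 of the 49 genes and MSUS 26 the highest MSUS level in 17, while Control 14 had the lowest Control level in 14 genes, MSUS 23 the lowest MSUS level in 16 and MSUS 1 in 13. The SD was larger among MSUS than among Control samples in 29 of the 49 genes or 59.2%, against 64.5% over all genes. It was more than 2 times larger in 6 (*Ipo5*, *Ipo8*, *Kpna2*, *Nup37*, *Pom121* and *Ran*), or 12.2% against 14.2% over all genes.

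**Figure D5:**
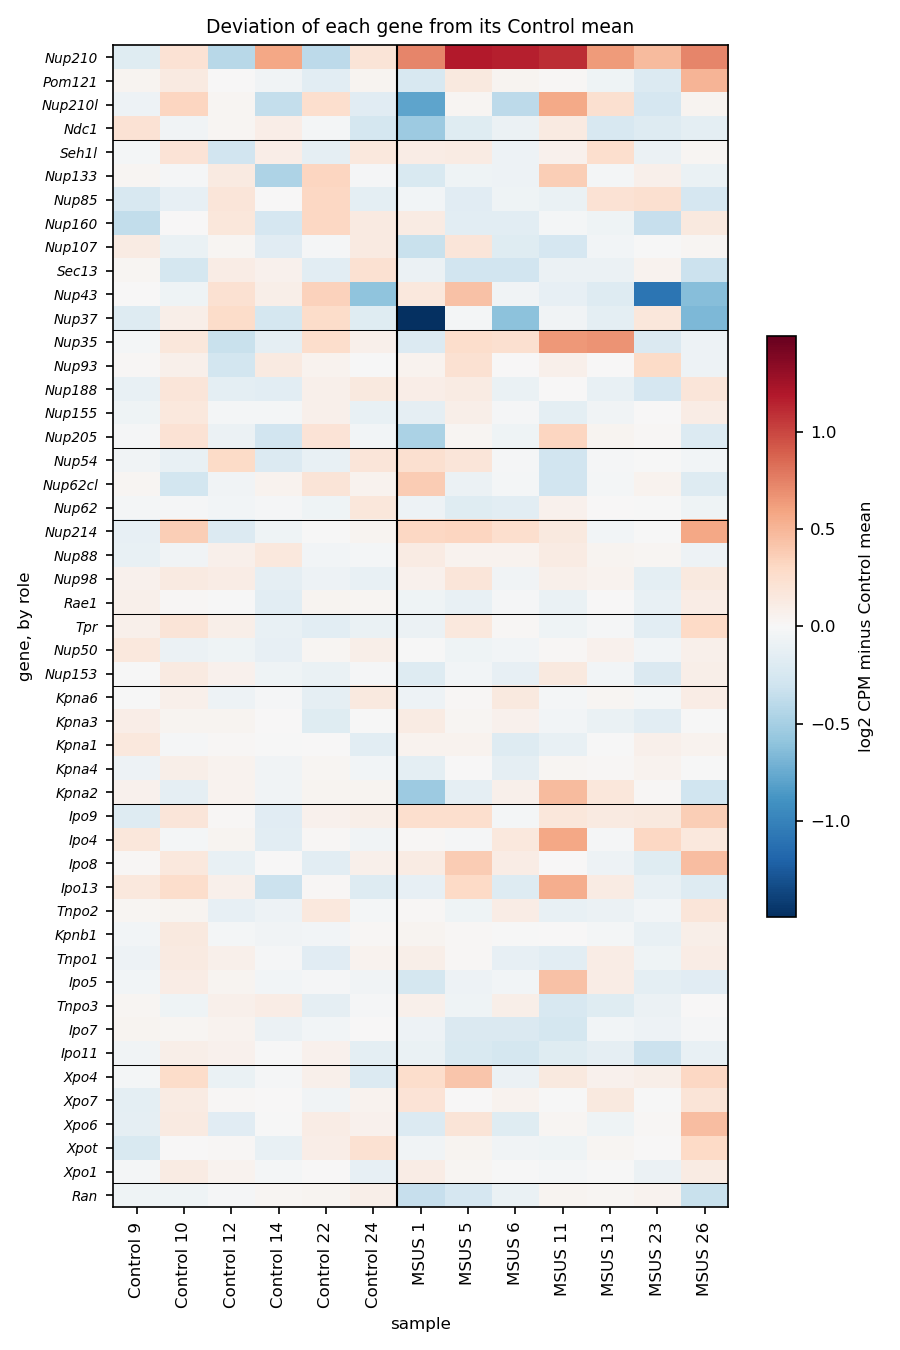
Deviation of each of the 49 genes (rows, by role) from its mean over the 6 Control samples, in log2 CPM, for each sample (columns), with red above and blue below that mean. The *Nup210* row is red in all 7 MSUS samples, and the other rows hold mostly pale cells on both sides.

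Related genes outside the symbol rule were counted in the same way. Of 38 tested genes of the Ran cycle, mRNA export, pore-associated proteins and the nuclear envelope, 18 had positive and 20 negative fold changes, with a median log2 fold change of -0.01. Their count with an unadjusted p under 0.05 was 2, or 5.26%, against 5.42% over all genes, and no adjusted p was under 0.05. *Nxt1*, the small partner of the mRNA exporter *Nxf1*, was at 3.86 to 4.13 log2 CPM in Control and 2.64 to 4.05 in MSUS samples, with 6 of 7 MSUS samples below every Control sample and a log2 fold change of -0.50 (SE 0.18, limma, adjusted p = 0.878). *Syne1*, which codes for nesprin-1 and links the nuclear envelope to the cytoskeleton, was at 7.21 to 8.01 log2 CPM in Control and 7.50 to 8.46 in MSUS samples, with 2 of 7 MSUS samples above every Control sample and a log2 fold change of 0.35 (SE 0.15, limma, adjusted p = 0.878). The 7 genes of the Ran cycle, among them the exchange factor *Rcc1* and the GTPase-activating protein *Rangap1*, had log2 fold changes from -0.14 to 0.01, and none passed the unadjusted threshold.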

How the data were processed

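Sertoli cells were sorted from testes of 6 Control and 7 MSUS adult males and their total RNA was sequenced with a stranded SMARTer Pico kit. The authors trimmed reads with Trim Galore 0.6.5, assigned them with Salmon 1.1.0 to the transcripts of GENCODE vM23, and deposited estimated counts per gene without normalization. How transcripts were summed to genes is not given in the sources used here. Of 54281 features, 27170 had no gene name, held 20.7% to 26.7% of the counts per sample, and entered neither library sizes nor tests. Unmatched columns numbered 0. Groups and sample numbers were taken from the sample titles. The labels give no batch, and litters and cages were not analysed here.

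Estimated counts were rounded to whole numbers. Genes passing filterByExpr were fitted with limma 3.58.1 and voom on counts normalized by TMM (edgeR 4.0.16, R 4.3.3), as in the study's methods, with group as the only term. Levels are in log2 CPM, computed with a prior count of 2, and levels per length are CPM over the union of exons in GENCODE vM21 (GRCm38), an earlier release than that of the authors, with 0.5 added to each count. P-values are two-sided and adjusted by Benjamini-Hochberg over all genes tested, and they measure the spread between these 13 mice. The fit was also run on simulated data with the same dispersion for every gene and larger changes than most seen here. That run therefore does not show how the fit handles changes as small as these. All 78 pairs of samples differed by more than sampling noise, 5.81 to 45.0 times, so none differed from another by read sampling alone. With no known repeat for reference, this cannot exclude separate libraries from the same animal.

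Alternatives were edgeR's quasi-likelihood test, DESeq2 1.42.0, other scalings, filters and weights, 2 covariates (mean log2 CPM of the elongated spermatid markers, and *Malat1*), and leaving out each sample. Sharing of 31-base words was counted between annotated transcripts, since reads from shared stretches cannot be assigned to 1 gene with certainty. Promoter sequences are those of RefSeq. Genes, role groups and lists were chosen with earlier results of these data known. Values are given for *Nup210*, for each gene with an unadjusted p under 0.05, for the most abundant gene per length of each role and for those whose groups do not overlap, and *Nup37*, *Nup43*, *Nup214*, *Ndc1* and other genes with values were added after these were seen.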

Additional observations from a re-analysis of the deposited data

Results flagged for a closer look

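In 6 of the 98 sets of values tested (49 genes in each of 2 groups), 1 sample lay further from its group than Dixon's 95% limit allows, where chance alone would give 4.9. In Control samples, *Nup62* was highest in Control 24 at 6.04 log2 CPM, with the next sample at 5.85, and *Kpnb1* was highest in Control 10 at 7.96, with the next at 7.83. *Kpna3* was lowest in Control 22 at 5.91, with the next at 6.08, *Nup93* was lowest in Control 12 at 4.76, with the next at 5.03, and *Rae1* was lowest in Control 14 at 5.27, with the next at 5.43. In MSUS samples, *Xpot* was highest in MSUS 26 at 6.40, with the next at 6.15. These 6 values came from 6 different samples, and none of them belonged to a gene with an unadjusted p under 0.05.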

How the results depend on the processing

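Under 23 alternatives, the number of genes of the 49 (50 without a filter) with an adjusted p under 0.05 was 0 in each. The log2 fold change of *Nup210* ran from 0.81 (*Malat1* as covariate) to 1.05 (without Control 14), with an unadjusted p under 0.05 in all 23 and an adjusted p of 0.392 (DESeq2) to 0.999. *Ipo11* had an unadjusted p under 0.05 in all 23, *Ipo7* in 15, *Ipo9* in 13 and *Nup214* in 10. *Nup37* had one in 4, *Ran* in 3 and each other gene in at most 2. The median log2 fold change of the genes ran from -0.02 to 0.01. The count at an unadjusted p under 0.05, 4 in the report, ran from 2 to 7 when a sample was left out, being 2 without Control 9 or Control 12 and 7 without MSUS 11 or MSUS 23. Over all genes that count was 781 and became 401 with *Malat1* and 1204 with the spermatid markers as covariate. The cause was not tested.

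Among the genes with an unadjusted p under 0.05 and the most abundant gene per length of each role, the following changed sign. All but *Sec13* (-0.15) did so from a value within 0.1 of 0. Other exportins and outer ring genes changed sign as well, as counted above. *Kpnb1* was 0.0045 with DESeq2, 0.0047 with its size factors, 0.0027 with a filter at 1 CPM and 2.5e-05 with the spermatid markers as covariate, where *Nup188* was 0.0139. With *Malat1* as covariate *Nup62cl* was 0.0526, *Pom121* -0.0792, *Tpr* -0.0913, *Xpo1* -0.0584 and *Sec13* 0.0411. When a sample was left out, the log2 fold change ran from -0.0099 to 0.0294 for *Kpnb1*, from -0.0350 to 0.0344 for *Nup188*, from -0.0951 to 0.0168 for *Nup62cl*, from -0.0443 to 0.0766 for *Pom121*, from -0.0223 to 0.0594 for *Tpr*, from -0.0079 to 0.0409 for *Xpo1* and from -0.0012 to 0.0553 for *Kpna6*. With the length of the longest transcript in place of the union of exons, the median level per length was 3.76. Spearman's rho between both orders across genes was 0.948, and the most abundant gene became *Nup88* on the mRNA export side, *Kpna2* among importin alphas and *Ipo5* among importin betas. No paired analysis was possible because the groups share no replicate numbers. With 14 to 40 reads per sample, counting error limits what can be said of *Nup210*.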

Other observations

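*Kpna2* and *Ipo5* varied more among MSUS than among Control samples. *Kpna2* ran from 5.60 log2 CPM in MSUS 1 to 6.61 in MSUS 11, with an SD of 0.33 among MSUS and 0.08 among Control samples. *Ipo5* ran from 7.18 in MSUS 1 to 7.88 in MSUS 11, with an SD of 0.23 among MSUS and 0.06 among Control samples. The same samples had the lowest and highest sums of all samples for the spermatocyte and the spermatogonia markers. The 5 spermatocyte markers (*Sycp1*, *Sycp2*, *Sycp3*, *Hormad1* and *Piwil1*) summed to 127 CPM in MSUS 1 and 311 CPM in MSUS 11, against 200.1 to 272 CPM in Control samples. The 4 spermatogonia markers, of which 2 were abundant enough to test, summed to 21.2 CPM in MSUS 1 and 61.6 CPM in MSUS 11. Most of this sum was *Dmrtb1*, at 4.14 log2 CPM in MSUS 1 and 5.90 in MSUS 11. *Zbtb16* at 1.23 and -0.28 and *Stra8* at 0.64 and 0.46 went the other way. *Gfra1* was at -1.53 and -1.48. The 4 round spermatid markers summed to 112 CPM in MSUS 11 and 52.0 CPM in MSUS 1, the highest and lowest of the MSUS samples. In Control samples they summed to 44.8 to 62.9 CPM. The 4 elongated spermatid markers, the most abundant of these lists, summed to 1775 CPM in MSUS 11, the highest sample, and to 1429 CPM in MSUS 1, the median of the MSUS samples. Whether these markers account for the spread of *Kpna2* and *Ipo5* was not tested. Further genes with more than 10% of their 31-base words in another annotated gene were *Xpot* at 22.7%, *Nup54* at 21.1%, *Tnpo1* at 14.4% and *Ipo5* at 10.6%.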
